A study of Mus musculus with 24 samples.

Results

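The genes described here are those named for proteins of the mitochondrial ribosome, in mice with and without Mrs2. They are the rows of the deposited expression table whose symbol begins with Mrpl or Mrps followed by a digit and whose type is protein-coding. The rule found 78 genes of 54532 in the table, 49 named for the large subunit (Mrpl) and 29 for the small subunit (Mrps), on 17 chromosomes. The mitochondrial ribosome translates the 13 proteins encoded by mitochondrial DNA, which are all core parts of the respiratory chain and the ATP synthase. Its RNAs come from the mitochondrial genome, but all of its proteins are encoded in the nucleus, made in the cytosol and imported. Brown and beige fat cells and hepatocytes are rich in mitochondria, whereas white fat cells hold few.

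Mrs2 lets magnesium into mitochondria. KO mice (Mrs2 KO) and WT mice were fed a Western diet (WD) or chow, starting at 13 weeks of age and lasting 52 weeks. Libraries were made from 50 mg of liver and from 100 mg of subcutaneous inguinal white fat (iWAT) freed of lymph nodes. The groups were KO WD, WT WD, KO chow and WT chow in each tissue, with 3 mice each and 24 libraries in all. The labels do not say how the Mrs2 allele was made or which cells lack it. Depth was 14717613 to 19538975 reads in liver and 15358324 to 20354594 in iWAT. Mrs2 stood at 1.60 to 1.95 FPKM (fragments per kilobase and per unit of library size) in KO WD iWAT, against 2.74 to 5.01 in WT WD iWAT. It stood at 1.74 to 2.25 FPKM in KO chow iWAT, against 3.87 to 4.67 in WT chow iWAT, and at 3.90 to 4.47 FPKM in KO chow liver, against 5.87 to 6.50 in WT chow liver. The WD livers did not separate by label, at 4.10, 5.21 and 4.21 FPKM in those labelled KO, against 5.10, 4.10 and 5.11 in those labelled WT, so results there are given for livers labelled KO or WT. Hepatocyte markers summed to 22800 FPKM or more in each liver and to at most 34.7 in each iWAT library, and adipocyte markers to 2610 FPKM or more in each iWAT library and to at most 50.2 in each liver, as the labels say. In bulk tissue, fewer cells of a type and less RNA per cell cannot be told apart.

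The DNA just before the start of 4 members that are named in the results below is shown. The sequences are RefSeq promoters on GRCm38.p6, 80 bases each, 5′ to 3′ on the strand of the gene, and capitals mark a match to a searched motif. None of these bases lies in an exon of the GENCODE vM21 annotation.
Mrpl34: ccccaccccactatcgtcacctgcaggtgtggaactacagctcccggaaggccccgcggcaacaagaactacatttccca
Mrpl43: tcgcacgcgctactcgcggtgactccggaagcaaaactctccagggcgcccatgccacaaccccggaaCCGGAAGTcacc
Mrps27: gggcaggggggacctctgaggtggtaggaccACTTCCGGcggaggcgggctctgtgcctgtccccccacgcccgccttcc
Mrpl9: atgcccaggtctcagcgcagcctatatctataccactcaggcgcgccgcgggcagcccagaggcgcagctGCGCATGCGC
The Mrpl34 window is chr8:71464846-71464925 on the plus strand and holds none of the motifs. The Mrpl43 window is chr19:45006443-45006522 on the minus strand, and its match begins 12 bases before the start. The Mrps27 window is chr13:99344706-99344785 on the plus strand, with a match that begins 49 bases before the start. The Mrpl9 window is chr3:94443238-94443317 on the plus strand and ends 19 bases before the start, with a match that begins 28 bases before it. Motifs of factors known for nuclear genes of mitochondria were searched by their letters on both strands: CCGGAAGT for ETS factors, to which the GA-binding protein belongs, GCGCATGCG for NRF1 and AAGATGGCG for YY1. In Mrpl9 the NRF1 letters match on both strands at overlapping positions, and the capitals cover both. Promoters of 250 bases before to 50 after the start were found for 69 of the 78 members. The ETS letters stood in 12 of these 69 genes (17.4%), against 4.31% of all 27025 genes with a promoter, the YY1 letters in 8 (11.6%, against 1.64%) and the NRF1 letters in 7 (10.1%, against 1.95%). These shares depend on the length searched: with 1 more letter at the 3′ end, which was the form searched first, YY1 (a further G) was in 5 members (7.25%, against 0.995%) and NRF1 (a further C) in 3 (4.35%, against 1.07%). The 4 promoters shown do not stand for the family. Those of Mrpl12, Mrps7, Mrps2 and Mrps23, also named below, held none of these letters and are not shown. A match describes letters in a window and not binding, and a link between the motifs and the members' levels was not tested.

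The members were moderately expressed, and their levels differed widely from gene to gene. Mean levels over the 12 libraries of a tissue ran from 1.60 FPKM for Mrps25 to 63.2 FPKM for Mrpl14 in liver (median 11.8 FPKM), and from 2.27 FPKM for Mrpl19 to 45.9 FPKM for Mrps21 in iWAT (median 9.94 FPKM). After Mrpl14, which lies on the face of the large subunit that meets the small one, Mrpl34 (55.6 FPKM) and Mrpl12 (48.5 FPKM) stood highest in liver, and Mrps30 (2.32 FPKM) and Mrpl33 (2.40 FPKM) stood next above Mrps25. In iWAT Mrpl34 (42.2 FPKM) and Mrpl2 (31.8 FPKM) followed Mrps21, and Mrps35 (2.45 FPKM) and Mrps30 (2.56 FPKM) stood next above Mrpl19. Detected members held 47 to 1228 reads per library in liver and 186 to 1679 in iWAT. Of the 78 members, 77 passed the filter on low values, a mean of 0.5 FPKM, in each tissue. The exception was Mrpl53, listed at 0 in all 24 libraries. Its exons share 695 bases (88.0%) with Gm42688 on the same strand, which stood at 0.121 to 0.514 FPKM. Mrps25 and Mrps34 share 69.8% and 63.4% of their exonic bases with a gene on the opposite strand, Nr2c2 and Mapk8ip3, and Mrpl19 shares 36.0% with Gcfc2. Mrps34 also shares 37.0% with Nme3 on the same strand. Mrps18b shares 30.5% with the opposite strand's Gm16279, and Mrps18c 23.2% with Gm43511 on the same strand. In GENCODE vM21 Mrpl43 shares 33.4% with the opposite strand's Twnk, the helicase of mitochondrial DNA. The deposited coordinates of Mrpl43 differ from vM21 and end at 45006442, and the deposited Twnk begins at 45006558, so there the 2 genes do not overlap. No source used here says that strand was counted or how reads in shared exons were assigned. The levels of the genes with shared exons are therefore uncertain, and for Mrpl43 this holds only by the vM21 exons.

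Summed over the family, the FPKM level was highest in KO WD among the iWAT groups, while the order of the WD livers depended on how libraries were scaled. In iWAT the members summed to 1199, 1207 and 1105 FPKM in KO WD, 945.7, 969.4 and 831.7 in WT WD, 1080.1, 1009 and 951.4 in KO chow and 902.9, 880.0 and 798.9 in WT chow. Every KO WD library lay above all other iWAT libraries, and KO chow lay above WT chow. As a share of reads, they took 0.269% to 0.310% in KO WD iWAT, against 0.225% to 0.261% in WT WD, and 0.256% to 0.286% in KO chow, against 0.239% to 0.256% in WT chow. The KO WD share lay above that of WT WD with no overlap, but KO WD replicate 3 (0.269%) lay below KO chow replicates 1 and 3 (0.286% and 0.279%). In liver the sums were 1209, 1250 and 1226 FPKM in those labelled KO on WD and 993.0, 1096 and 1015 in those labelled WT on WD. They were 1288, 1429 and 1302 FPKM in KO chow livers and 1259, 1240 and 1326 in WT chow livers, so that the WD livers labelled WT lay below the other 9. By share of reads the order on WD was the opposite, at 0.191% to 0.200% in livers labelled KO, against 0.201% to 0.210% in those labelled WT, with no overlap. The chow livers overlapped, at 0.197% to 0.215% in KO chow and 0.189% to 0.210% in WT chow. The deposited FPKM was not scaled to the total reads. The library size that FPKM implies was 0.980 to 1.07 times the reads in WD livers labelled WT and 0.769 to 0.854 times in the other livers, and 1.24 to 1.60 times in iWAT. Directions in liver are therefore given relative to the median of all genes tested as well as in FPKM.

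**Figure D1:**
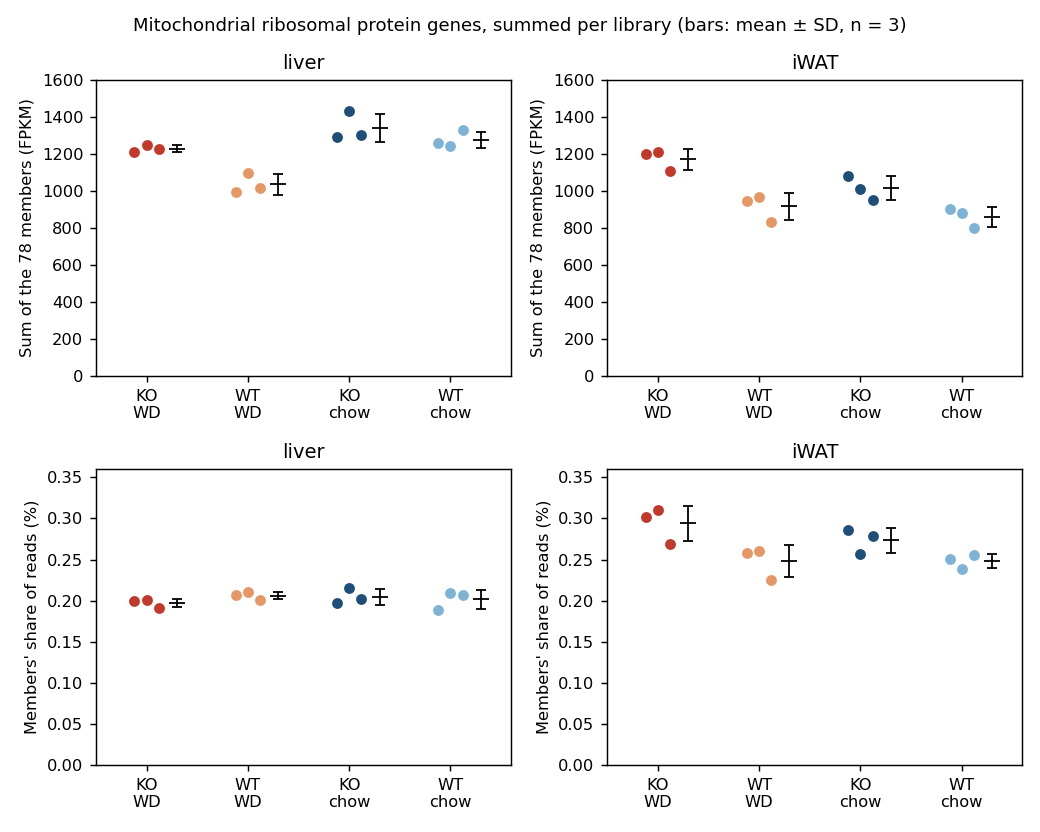
Sum of the 78 members per library in FPKM (top) and as a percent of reads (bottom), in liver (left) and iWAT (right), by group, with points for libraries and bars for mean ± SD of 3. WD livers are grouped by label. Among livers, those labelled WT on WD lie lowest in FPKM, at 993.0 to 1096, but above those labelled KO on WD in share of reads. Among iWAT groups the KO WD mean is highest on both scales.

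On WD, the mitochondrial ribosomal proteins stood higher in KO than in WT iWAT nearly throughout. Of 77 members, 17 rose and none fell (limma, Benjamini-Hochberg adjusted p under 0.05 over all genes), against 3.2% of the 14685 genes tested that rose and 1.05% that fell. The members' median log2 fold change of FPKM + 1, KO over WT, was 0.34, against -0.02 for all genes. It was above 0 in 75 members, and in 53 members every KO library lay above every WT library, against 12.7% of all genes. Of the risers 12 carry large-subunit symbols (of 48 tested) and 5 small-subunit symbols (of 29). The medians of the members with these symbols were 0.33 and 0.34. Under total-read scaling, which moved the median of all genes to -0.12, the members' median was 0.23 and 5 rose.

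Mrps27 (ENSMUSG00000041632, chromosome 13, 99344786 to 99415562, plus strand), an RNA-binding pentatricopeptide-repeat protein of the small subunit, stood at 12.2, 10.1 and 7.88 FPKM in KO WD iWAT, against 4.62, 6.44 and 5.10 in WT WD iWAT. The groups did not overlap, and its log2 fold change of 0.78 ± 0.15 (SE, n = 3 per group) was the largest among the members (limma adjusted p = 0.0246). Its promoter is among those shown above. Of its exonic bases 24.2% are shared with the opposite strand's 6430562O15Rik. Mrpl12, a stalk protein of the large subunit that is also known to bind the mitochondrial RNA polymerase, stood at 39.5, 38.7 and 30.9 FPKM in KO WD, against 21.2, 24.6 and 17.4 in WT WD (0.76 ± 0.16, adjusted p = 0.0298). Mrps2, a core small-subunit protein kept from bacteria, stood at 12.9, 11.5 and 8.35 FPKM in KO WD, against 6.76, 6.51 and 5.35 in WT WD (0.71 ± 0.16, adjusted p = 0.0390). In these 3 genes KO WD replicate 3 lay lowest of its group yet above every WT WD library.

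Mrps23, a small-subunit protein with no bacterial counterpart, stood at 24.2, 26.6 and 20.3 FPKM in KO WD, against 13.9, 14.1 and 14.2 in WT WD. It had the smallest adjusted p of the members (0.70 ± 0.13, limma adjusted p = 0.0230), and its WT WD libraries lay close together. Mrpl34 (ENSMUSG00000034880, chromosome 8, 71464959 to 71465747, plus strand), a small basic protein of the large subunit, stood at 59.5, 62.5 and 50.6 FPKM in KO WD, against 33.4, 45.6 and 31.3 in WT WD (0.65 ± 0.14, adjusted p = 0.0363). Mrpl43 (ENSMUSG00000025208, chromosome 19, 45005014 to 45006442, minus strand), of the large subunit, stood at 22.3, 20.5 and 23.7 FPKM in KO WD, against 16.7, 19.2 and 15.6 in WT WD. Its groups did not overlap either, but its change of 0.35 ± 0.10 did not pass (adjusted p = 0.0774). Mrpl38 (0.61 ± 0.13), Mrpl10 (0.60 ± 0.15), a stalk protein that anchors Mrpl12, and Mrps18b (0.45 ± 0.09), 1 of 3 relatives of bacterial S18, rose as well. The other 9 that passed, among them Mrpl9, whose promoter is shown above (0.45 ± 0.09), rose by 0.32 (Mrps10) to 0.59 (Mrpl46) on the log2 scale.

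**Figure D2:**
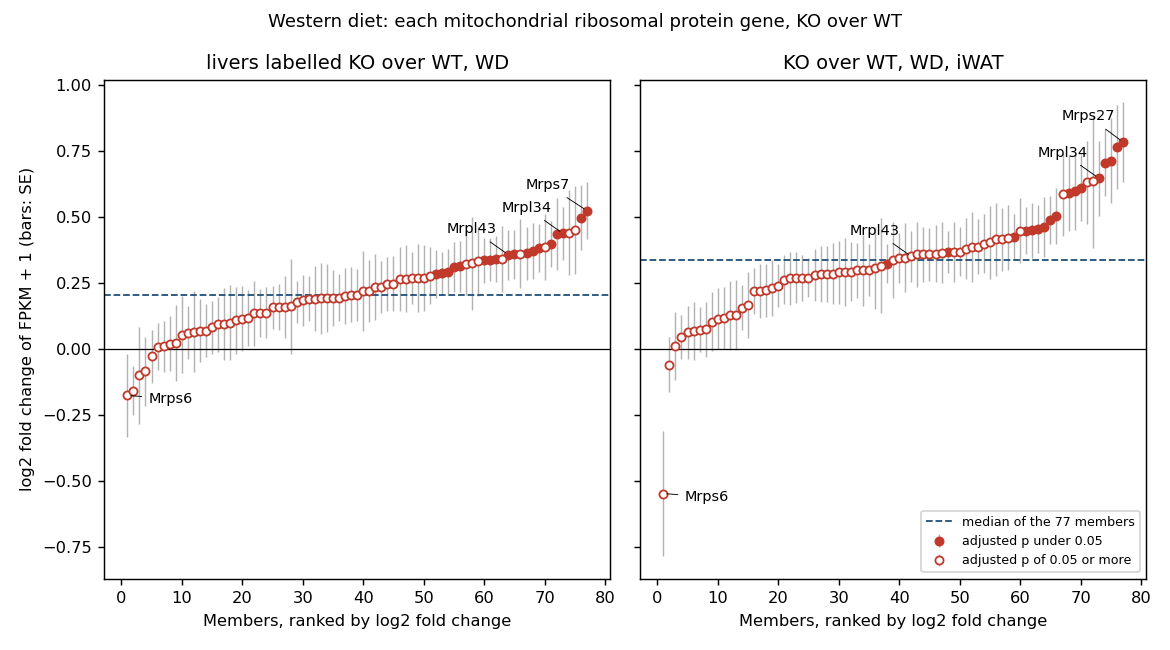
Log2 fold change of FPKM + 1, KO over WT on WD, for each of the 77 members in rank order, in liver (left) and iWAT (right), with SE bars, filled points for adjusted p under 0.05 and a dashed line at the members' median. Medians are 0.20 in liver and 0.34 in iWAT, and Mrps6 lies lowest in both.

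The calls in WD iWAT depended on single libraries. Without KO WD replicate 1, KO WD replicate 2 or WT WD replicate 3, limma called 0 members, and it called 17, 16 and 20 genes in all. Without WT WD replicate 1 or 2 it called 2 and 4 members, and without KO WD replicate 3 it called 25, of which 24 rose and 1 fell. Skeletal muscle genes, 8 markers, summed to 1070 FPKM in KO WD replicate 1 and to 3480 in WT WD replicate 1, against 14.4 to 254 in the other WD iWAT libraries. With both of these left out, 0 members and 4 genes in all were called. Lymphocyte markers, 6 genes, summed to 108 FPKM in KO WD replicate 2, against 5.42 to 31.8 in the other 5 WD iWAT libraries; without it and the chow libraries of replicate 3, 0 members were called.

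Markers of brown and beige fat cells moved with the members in iWAT. All 7 rose in KO WD over WT WD iWAT, and their sum was 607 to 1960 FPKM in KO WD, against 20.7 to 165 in WT WD. Ucp1, the uncoupling protein that makes heat in these cells, stood at 650.6, 698.9 and 128.8 FPKM in KO WD, against 27.5, 28.0 and 0.168 in WT WD. KO WD replicate 3, with the least Ucp1 of its group, also held the least of the 3 for the member sum. Adipocyte markers summed to 2880 to 3930 FPKM in KO WD and 3170 to 3880 in WT WD, and none of 6 was called. Red cell genes stood lower in KO WD, with a median of -1.86 over 5 genes, 1 of which fell (Alas2, -1.85 ± 0.43, limma adjusted p = 0.0447), and a sum of 691 to 1800 FPKM in KO WD, against 1800 to 7730 in WT WD. The part of brown and beige cells and of red cells in the members' difference was not tested.

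On chow, where the comparison shows KO and WT iWAT without the dietary load, no member passed, but nearly all stood on the same side. Limma called 0 of 77 members and 0.0% of 14685 genes in either direction, edgeR called 0 members and DESeq2 1. Unadjusted p was under 0.05 in 21 members, against 5.65% of all genes. Of the 77, 73 were above 0, with a median of 0.19 against -0.01 for all genes. In 33 members the groups did not overlap and KO chow was higher, against 5.86% of all genes, and in none was it lower, against 4.95%. Mrpl12 stood at 32.0, 27.4 and 32.0 FPKM in KO chow, against 24.2, 21.0 and 17.4 in WT chow (0.53 ± 0.16, limma adjusted p = 0.752). Mrpl57, a small protein of the large subunit, stood at 7.58, 7.26 and 7.11 FPKM in KO chow, against 5.74, 5.56 and 4.87 in WT chow (0.38 ± 0.09, adjusted p = 0.510). The log2 fold change was 0.44 ± 0.12 for Mrpl50, 0.37 ± 0.14 for Mrpl34 and 0.22 ± 0.10 for Mrpl43, and the groups overlapped in none of these 5 genes. Brown and beige markers summed to 630 to 899 FPKM in KO chow, against 137 to 147 in WT chow, and their part was not tested. Limma did not call Mrs2 itself (-0.82 ± 0.16, adjusted p = 0.432) or Ucp1 (6.53 ± 1.11, adjusted p = 0.410) in this comparison either.

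The diet itself moved few members in iWAT. In WT mice 1 of 77 members rose on WD over chow and none fell, against 1.36% and 0.769% of all genes, and the members' median was 0.02 against 0.01. The riser was Mrps28, a small-subunit protein, at 28.2, 30.3 and 25.5 FPKM in WT WD, against 18.5, 18.4 and 20.1 in WT chow (0.53 ± 0.11, limma adjusted p = 0.0395). That call was lost without any 1 of the 6 libraries. In KO mice no member passed on WD over chow, and 0.0% of all genes did; edgeR called 0 members and DESeq2 1. There 66 members were above 0 with a median of 0.18 against 0.02, and 21 had an unadjusted p under 0.05, against 9.47% of all genes. In 22 members KO WD lay above KO chow without overlap, against 8.63% of all genes, and in none below it, against 6.45%. Mrps18b stood at 7.70, 8.15 and 7.77 FPKM in KO WD, against 5.47, 5.29 and 5.24 in KO chow (0.49 ± 0.09, adjusted p = 0.235). This comparison shares the KO WD libraries with that of KO over WT. The genotype by diet interaction, which tests whether KO over WT differed between the diets, called 0 members and 0.0% of genes with limma. EdgeR called 0 members and DESeq2 0. Unadjusted limma p was under 0.05 in 10 members, against 6.88% of all genes.

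**Figure D3:**
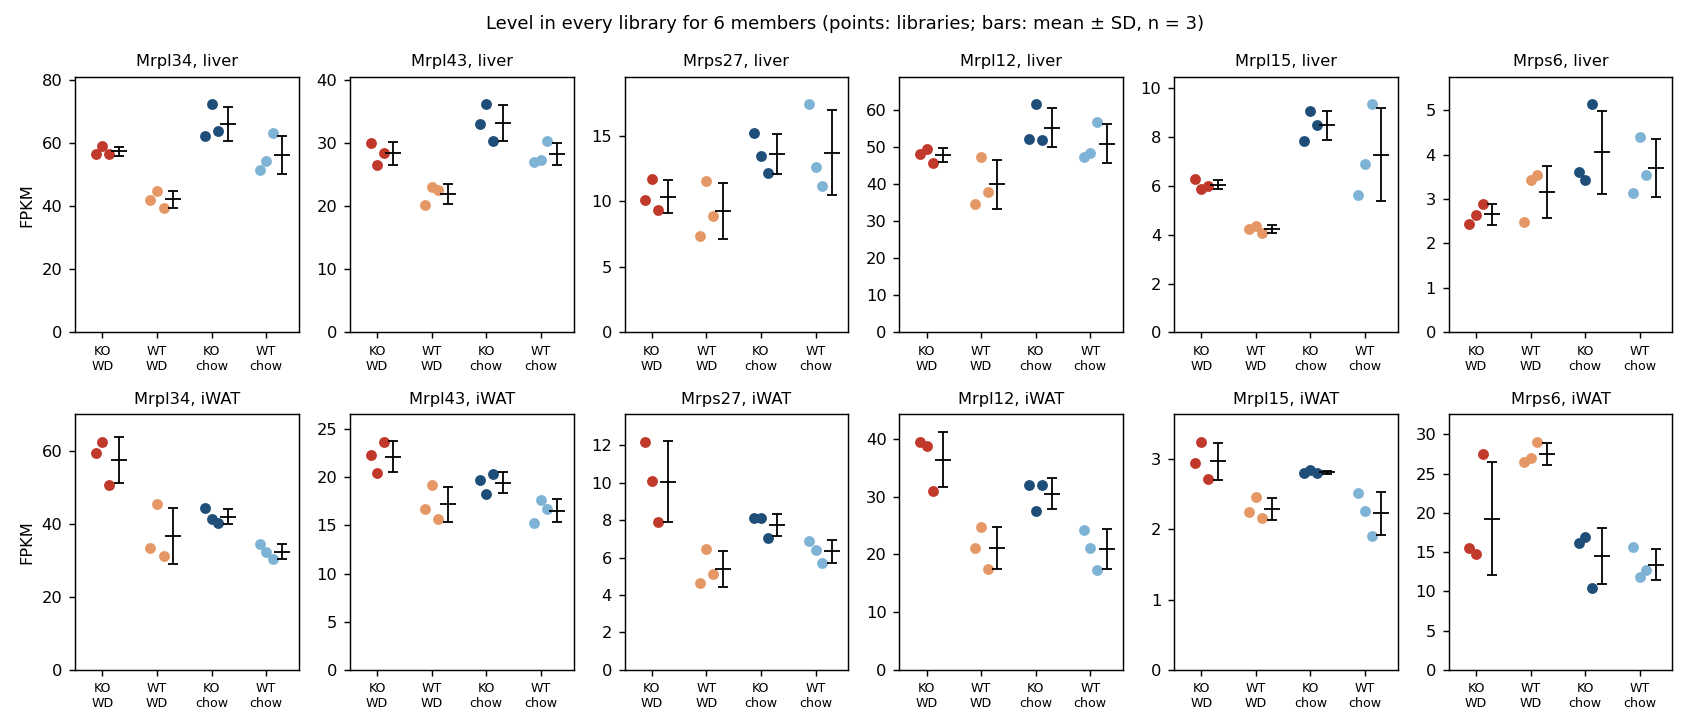
FPKM of 6 members in every library of liver (top) and iWAT (bottom), by group, with bars for mean ± SD of 3. In iWAT the means of Mrpl34, Mrpl43, Mrps27, Mrpl12 and Mrpl15 are highest in KO WD, whereas Mrps6 is highest in WT WD, at 26.4 to 29.1 FPKM.

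In liver on WD the members stood higher in livers labelled KO than in those labelled WT by the deposited FPKM. Of 77 members 18 rose and none fell (limma), against 10.6% of 14019 genes that rose and 10.4% that fell. The members' median was 0.20, against 0.07 for all genes, and 72 were above 0, against 58.7% of all genes. In 38 members every liver labelled KO lay above every liver labelled WT, against 25.4% of all genes, and in 1 member it lay below, against 17.5%. The direction depended on the scaling. With libraries scaled to their total reads, the median of all genes moved to -0.17 and that of the members to -0.07, 3 members fell and none rose. Relative to the median of all genes, the members stood higher by 0.14 in FPKM, 0.13 with median-of-ratios scaling, 0.06 with quantile normalization and 0.10 by total reads.

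Mrps7 (ENSMUSG00000046756, chromosome 11, 115603925 to 115608036, plus strand), a protein that starts the assembly of the small subunit's head, stood at 31.3, 33.8 and 33.3 FPKM in WD livers labelled KO, against 19.2, 25.6 and 23.1 in those labelled WT. Its change of 0.52 ± 0.11 was the largest (limma adjusted p = 0.00884) and was called without any 1 library, but stood at 0.21 (adjusted p = 0.155) by total reads. Mrpl34 stood at 56.7, 59.1 and 56.5 FPKM in livers labelled KO, against 42.1, 44.9 and 39.6 in those labelled WT (0.44 ± 0.10, adjusted p = 0.0134). Mrpl43 stood at 30.1, 26.5 and 28.5 FPKM in livers labelled KO, against 20.2, 23.1 and 22.6 in those labelled WT (0.36 ± 0.09, adjusted p = 0.0240). In none of these did the labels overlap. Mrpl1 (0.50 ± 0.12), a protein of the stalk by which transfer RNA leaves, and Mrpl15 (0.43 ± 0.14), of the large subunit's core, rose too. So did Mrps10 (0.38 ± 0.09) and Mrps5 (0.40 ± 0.09), whose lower dose is known to lengthen life in worms.

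On WD over chow, members stood lower in livers labelled WT by the deposited FPKM. Of 77 members, 21 fell and none rose, against 9.49% of all genes that fell and 9.72% that rose, and the median was -0.26 against -0.05 for all genes. The WD livers labelled WT lay below WT chow without overlap in 42 members, against 19.2% of all genes, and above it in none, against 15.2%. Mrpl15 stood at 4.24, 4.37 and 4.07 FPKM in WD livers labelled WT, against 5.61, 6.90 and 9.34 in WT chow livers (-0.64 ± 0.14, limma adjusted p = 0.0103). Mrps35, which is specific to mitochondria, stood at 2.34, 2.50 and 2.16 FPKM in WD livers labelled WT, against 3.61, 3.78 and 4.34 in WT chow (-0.56 ± 0.11, adjusted p = 0.00670). Mrpl2, next to the site where peptide bonds form, stood at 25.9, 34.9 and 28.9 FPKM in WD livers labelled WT, against 40.3, 39.4 and 54.5 in WT chow (-0.56 ± 0.16, adjusted p = 0.0342). The WT chow libraries spread widely in Mrpl15 and Mrpl2, where replicate 3 was highest. Mrpl9 (-0.48 ± 0.12), Mrps26 (-0.45 ± 0.13), Mrps7 (-0.45 ± 0.11), Mrpl34 (-0.40 ± 0.10), Mrps18c (-0.36 ± 0.10), Mrpl43 (-0.35 ± 0.09) and Mrps5 (-0.33 ± 0.09) fell as well. By total reads the median of all genes moved to 0.20 and that of the members to 0.04, 5 members rose and none fell. Relative to the median of all genes the members stood at -0.21 in FPKM, -0.21 with median of ratios, -0.14 with quantile normalization and -0.17 by total reads.

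Both of these liver comparisons share the WD livers labelled WT, so they are not independent. Mrps7, for example, stood at 0.52 for labelled KO over WT on WD and at -0.45 for WD over chow in livers labelled WT. Single libraries moved both counts. For labelled KO over WT on WD, limma called 5, 9 and 6 members without replicate 1, 2 and 3 labelled KO WD, and 3 and 5 without replicate 1 and 3 labelled WT WD. For WD over chow in livers labelled WT, it called 5 and 6 without replicate 1 and 3 labelled WT WD, and 6 without WT chow replicate 3, the liver in which muscle markers reached 176 FPKM. Without this liver and replicate 2 labelled KO WD (85.4 FPKM), 11 members rose in livers labelled KO on WD and 7 fell on WD over chow in livers labelled WT. Acinar markers reached 1280 FPKM in replicate 2 labelled WT WD, against 24.4 or less in the other WD livers, and the counts were 13 and 17 with both acinar-rich livers left out.

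Cell type markers moved with the members in these livers. Of 6 macrophage markers all fell in livers labelled KO over WT on WD, with a sum of 83.2 to 99.9 FPKM in those labelled KO, against 325 to 979 in those labelled WT. Of 6 hepatocyte markers 4 rose, with a sum of 28400 to 37300 FPKM in livers labelled KO, against 22800 to 30900 in those labelled WT. The keratin and epithelial genes Krt8, Krt18 and Epcam, listed as markers of mammary epithelium and known from bile ducts too, fell in livers labelled KO, while the milk protein Wap was at 0 in all of these livers. In WT mice on chow Krt8 and Krt18 were higher in liver than in iWAT (6.96 ± 0.41 and 6.77 ± 0.52), and their fall here names no single cell type. All 4 lymphocyte markers tested fell in livers labelled KO over WT on WD too. Of 4 brown and beige markers tested 2 were above 0, with a median of 0.08, and 1 rose, Elovl3 (2.88 ± 0.91, limma adjusted p = 0.0479). Elovl3 was also higher in liver than in iWAT of WT mice on chow (4.97 ± 0.87), and Ucp1 stood at 1.30 FPKM or less in these livers. The sum of all 7 was 46.6 to 291 FPKM in livers labelled KO, against 11.3 to 57.1 in those labelled WT. On WD over chow in livers labelled WT, 6 of 6 macrophage markers rose and 5 of 6 hepatocyte markers fell, with a hepatocyte sum of 22800 to 30900 FPKM in WD livers labelled WT, against 46800 to 77100 in WT chow. Their part in the members' difference was not tested.

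In livers labelled KO no member passed on WD over chow by limma, against 0.15% of genes that rose and 0.271% that fell, and edgeR and DESeq2 called 0 as well. An unadjusted p under 0.05 was held by 12 of 77 members, near the 15.4% of all genes. The median was -0.09 against 0.01 for all genes, and 55 members were below 0. The WD livers labelled KO lay below KO chow without overlap in 22 members, against 12.5% of all genes, and above it in 1, against 14.2%. Mrps21 stood at 31.0, 38.6 and 40.4 FPKM in WD livers labelled KO, against 49.2, 58.6 and 50.7 in KO chow livers (-0.52 ± 0.15, limma adjusted p = 0.167). Mrps36, known as a subunit of the 2-oxoglutarate dehydrogenase complex, stood at 6.41, 6.23 and 5.21 FPKM in WD livers labelled KO, against 9.34, 7.17 and 11.6 in KO chow (-0.56 ± 0.18, adjusted p = 0.199). The genotype by diet interaction, which tests the difference between these diet effects, called 0 members by limma, against 0.128% of genes above 0 and 0.421% below 0. EdgeR and DESeq2 called 0 members too. By limma 9 of 77 members had an unadjusted p under 0.05, a smaller share than the 16.4% of all genes. The smallest p was that of Mrpl18 (0.47 ± 0.12, limma adjusted p = 0.116). The interaction's median over the members was 0.17 in FPKM and -0.081 by total reads, where that of all genes moved to -0.16.

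On chow no member was called between KO and WT livers. Limma, edgeR and DESeq2 each called 0 of 77, and limma called 0.0% of genes. Unadjusted limma p was under 0.05 in 3 of 77 members, a smaller share than the 4.81% of all genes. The median was 0.06 against 0.00 for all genes, with 58 members above 0. Mrpl55 stood at 0.26 ± 0.09, Mrpl34 at 0.23 ± 0.10 and Mrpl43 at 0.22 ± 0.09 (limma adjusted p = 0.863 each). KO chow lay above WT chow without overlap in 7 members, against 4.59% of all genes, and below it in none, against 4.34%. Mrs2 itself was not called there (-0.48 ± 0.10, limma adjusted p = 0.863), though its levels in KO and WT chow livers did not overlap. A p that misses the threshold does not show that the livers were alike.

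**Figure D4:**
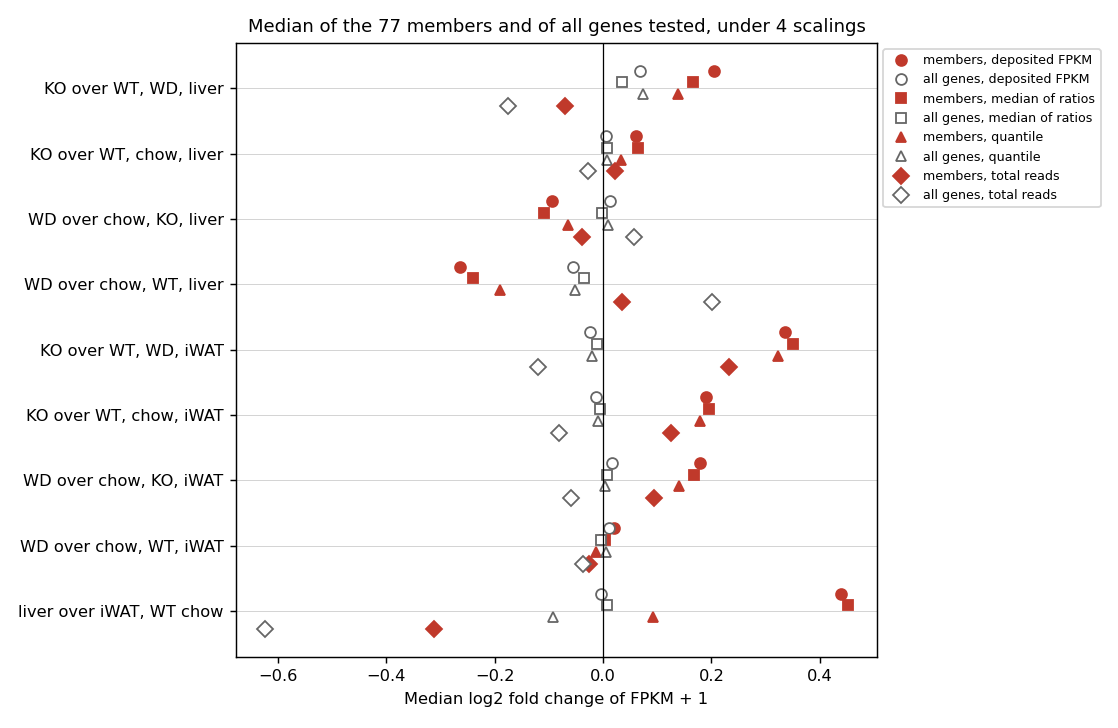
Median log2 fold change of the 77 members (filled) and of all genes tested (open) under 4 scalings, for 9 comparisons. WD livers are grouped by label. Total-read scaling moves both medians together in liver, and in KO over WT iWAT on both diets the members stay above 0 and above all genes under each scaling.

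Between the tissues of WT mice on chow, most members stood higher in liver than in iWAT in FPKM. Of 77 members 49 were higher in liver and 4 lower (limma over all 24 libraries), against 32.5% and 31.5% of 15254 genes. In 50 members liver lay above iWAT without overlap and in 4 below it, against 32.6% and 32.1% of all genes, and the median log2 fold change of liver over iWAT was 0.44 against 0.00 for all genes. The count rests on the scaling: 31 were higher and 14 lower with quantile normalization, and 8 higher and 43 lower by total reads, where the median of all genes moved to -0.62 and that of the members to -0.31. Mrpl14 stood at 67.7, 57.4 and 75.3 FPKM in liver, against 24.6, 26.0 and 21.2 in iWAT (1.44 ± 0.16, limma adjusted p = 2.22e-07). Mrpl15 (1.34 ± 0.11), Mrpl12 (1.25 ± 0.14), Mrpl52 (1.16 ± 0.12), Mrpl18 (1.10 ± 0.08), known in human cells to bind a cytosolic ribosomal RNA, and Mrps2 (1.07 ± 0.15) followed. Mrpl34 stood at 0.78 ± 0.12 and Mrpl43 at 0.74 ± 0.09 in FPKM, but both at about 0 by total reads (-0.03 and -0.05). Called members with roles beyond the core were also higher in FPKM: Mrps18b by 0.83 ± 0.09, Mrpl58, a hydrolase that frees stalled peptides, by 0.63 ± 0.12, Mrps5 by 0.62 ± 0.10, Mrps18c by 0.40 ± 0.10, Mrpl10 by 0.33 ± 0.12 and Mrpl44 by 0.30 ± 0.13. Mrpl11, Mrps18a and Mrps36, of the same class, were not called. Their mean FPKM in liver was 8.78, 6.58 and 7.41, against 8.88, 6.83 and 9.17 in iWAT. Mrpl58, Mrps5, Mrps18c, Mrpl10 and Mrpl44 turned negative by total reads.

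**Figure D5:**
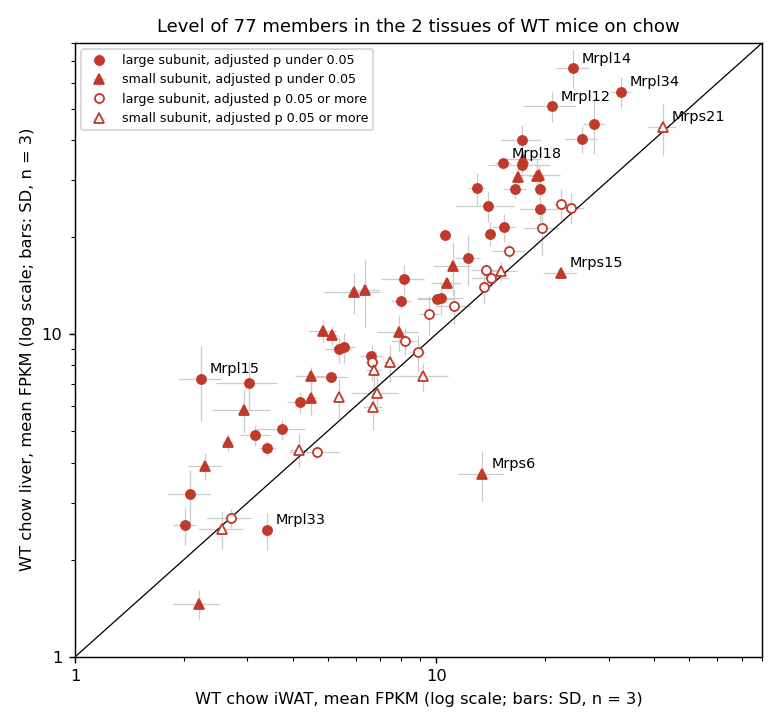
Mean FPKM of each of the 77 members in WT chow liver (vertical, log scale) against WT chow iWAT (horizontal, log scale), with SD bars over 3 libraries, circles for large and triangles for small subunit symbols, and filled points for adjusted p under 0.05. Most points lie above the line of equality, and Mrps6 lies farthest below it.

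Mrps6 (ENSMUSG00000039680, chromosome 16, 92058270 to 92112227, plus strand), a small-subunit protein kept from bacteria, departed from the rest. It held 3.14, 4.40 and 3.54 FPKM in WT chow liver, against 15.6, 11.9 and 12.8 in WT chow iWAT (-1.62 ± 0.21, limma adjusted p = 1.28e-06), and it was lower in liver under each of the 4 scalings. In WD iWAT it held 15.5, 14.7 and 27.6 FPKM in KO, against 26.4 to 29.1 in WT (-0.55 ± 0.24, adjusted p = 0.250), where nearly all other members stood higher in KO. Against WT chow, at the values above, WT WD lay higher without overlap (0.99 ± 0.24, adjusted p = 0.0620). Its exons share 305 bases (19.9%) with Gm49711 and 159 (10.4%) with Slc5a3, an inositol transporter, both on the same strand. Slc5a3 stood at 4.72, 3.26 and 8.68 FPKM in KO WD iWAT and 10.5, 10.7 and 16.1 in WT WD iWAT, against 4.75, 2.95 and 2.62 in WT chow iWAT, and rose on WD over chow in WT (1.61 ± 0.32, adjusted p = 0.0360). How reads in the shared exons were assigned is not given in the sources used here, and the level of Mrps6 is uncertain for that reason. Mrps15 (-0.48 ± 0.11), Mrpl33 (-0.34 ± 0.10) and Mrps25, at 2.55 FPKM or less in every WT chow library, were the other members lower in liver.

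Lists of other genes tied to mitochondrial translation differed in how many of their genes were called. In KO over WT on WD, iWAT, where 3.2% of all genes rose and the members' share was 17 of 77, 1 of 5 mitoribosomal proteins with other symbols rose, which was Ptcd3 (0.73 ± 0.14, limma adjusted p = 0.0254). Of 26 mitoribosome assembly factors 1 rose, a share near that of all genes, which was the small-subunit assembly GTPase Eral1 (0.47 ± 0.11). Of 15 translation factors 5 rose, among them the elongation factors Gfm1 (0.81 ± 0.15) and Gfm2 (0.54 ± 0.10), and of 17 mitochondrial aminoacyl-tRNA synthetases 4 rose, among them Sars2 (0.47 ± 0.09). Of 13 mitochondrially encoded mRNAs 9 rose, by a median of 1.91 over all 13, with mt-Nd2 at 2.05 ± 0.30 (adjusted p = 0.0162). Mitochondrially encoded genes took 5.26% to 11.6% of reads in KO WD iWAT, against 2.49% to 3.42% in WT WD. Of 12 biogenesis regulators 3 rose, the coactivator Ppargc1b (1.26 ± 0.21), the nuclear receptor Esrra (0.67 ± 0.16) and the mitochondrial RNA polymerase Polrmt (0.36 ± 0.08), and of 9 genes of mitochondrial protein folding stress 3 rose, with the protease Lonp1 at 1.06 ± 0.23. None of these lists had a member that fell. Of 78 tested cytosolic ribosomal proteins none rose or fell, and their median was -0.004.

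In livers labelled KO over WT on WD, where 10.6% of all genes rose, 2 of 5 mitoribosomal proteins with other symbols, 4 of 26 assembly factors, 3 of 15 translation factors, 4 of 17 synthetases, 3 of 12 biogenesis regulators, 4 of 9 folding-stress genes and 6 of 13 mitochondrially encoded mRNAs rose, and none fell. Lrpprc, which stabilizes mitochondrial mRNAs, rose by 0.57 ± 0.09 (limma adjusted p = 0.00348) and Tfam, which packages mitochondrial DNA, by 0.42 ± 0.09 (adjusted p = 0.0116). Of 76 cytosolic ribosomal proteins 8 fell, a share near the 10.4% of all genes that fell, and none rose, with a median of -0.21. Among them Rps12 stood at -0.83 ± 0.17 (adjusted p = 0.00829). On WD over chow in livers labelled WT, where 9.49% of all genes fell, 2 of 5 mitoribosomal proteins with other symbols, 4 of 15 translation factors, 3 of 17 synthetases, 3 of 12 biogenesis regulators, 4 of 9 folding-stress genes and 3 of 13 mitochondrially encoded mRNAs fell, and none rose. The 2 of 26 assembly factors and 4 of 76 cytosolic ribosomal proteins that fell are smaller shares than that of all genes. Lrpprc fell by 0.66 ± 0.09 on the log2 scale (adjusted p = 0.00168). These lists share the scaling limit given for the members in liver. On chow no gene of these lists was called in KO over WT of either tissue.

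The authors' deposited tables list genes with p under 0.05 by DESeq2. For KO against WT on WD in iWAT they hold 3117 genes, 1281 of them with an adjusted p under 0.05. Of these, 52 are members, all higher in KO, and 18 members have an adjusted p under 0.05. On WD in liver the authors' deposited table lists 5970 genes, 4217 of them with an adjusted p under 0.05. It lists 17 members, all higher in KO, 8 of them with an adjusted p under 0.05. In both WD tables the listed members passed adjustment in a smaller share than all listed genes. That share is among genes already at p under 0.05, and these tables do not give the number of genes tested. The liver table lists fewer members than that of iWAT (17 against 52), although it lists more genes in all (5970 against 3117). On chow the authors' deposited tables list 15 members in iWAT, all higher in KO with none under 0.05 after adjustment, and 0 in liver. They list 876 genes in all in iWAT, of which 104 pass adjustment, and 776 in liver, of which 10 pass. The same libraries underlie these tables and the values above.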

How the data were processed

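Poly(A) RNA was sequenced in 24 mouse libraries, per the labels' protocols. The authors deposited 1 table of FPKM per gene and library, 4 comparison tables with counts, log2 fold changes and p-values, and per the file headers and the readme the latter come from DESeq2 as KO over WT. HISAT2 (2.0.5), DESeq2 (1.20.0) and the build mm10 are listed in the submitters' processing notes without roles, and no counter or strand setting is named there. FPKM was turned back to whole reads with gene length and the deposited counts: all 540911 values above 0 came out whole within 0.05 reads, and all 64434 deposited counts compared were equal. There are 56 other columns of per-sample values, which were not used. Symbols that a spreadsheet had turned to dates numbered 27, none of them a member. There are 5 processed pseudogenes that carry member names (of Mrpl48, Mrpl23 and Mrps36); reads may be split between them and these members.

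FPKM was tested as log2(FPKM + 1) with limma 3.58.1 (trend, robust) in R 4.3.3, 4 groups per tissue in 1 fit (14019 genes in liver and 14685 in iWAT with a mean of at least 0.5 FPKM), and over all 24 libraries (15254 genes) for liver over iWAT. Benjamini-Hochberg adjustment ran over all genes, and a gene was called at an adjusted p under 0.05. Fold changes on this scale understate those of low genes. The fit was tested on simulated data. On WD in iWAT, KO over WT, limma called 624 genes, edgeR 699 and DESeq2 1454. Alternatives were edgeR 4.0.16 and DESeq2 1.42.0 on recovered reads, a pseudocount of 0.1, no filter, 3 scalings, a replicate block, leaving out each library and, chosen after seeing the data, leaving out libraries rich in muscle, acinar or lymphocyte genes. Members and gene lists were chosen with earlier results of these data known. In each comparison the text names Mrpl34 and Mrpl43, up to 6 called rises and 6 called falls with the largest change, no overlap and at least 3 FPKM in the higher group (else the 3 smallest p), the 3 highest and lowest levels per tissue, members with roles beyond the ribosome's core when called, members failing the filter, and up to 3 called genes per list; Mrps6, Mrps15 and the genes with shared exons were also described after their values were seen. P-values set a change against the spread between mice within groups, with 3 mice per group. That spread is pooled per gene over all groups of the fit, also those outside the comparison, and moderated over genes. Replicate numbers are in the labels. Deviations of same-numbered libraries correlated at over 0.1 for every number only between KO chow and WT chow iWAT (0.184, 0.127 and 0.407). For numbers 1 and 2 a differently numbered library correlated more (0.258 and 0.136), so the numbers are not shown to pair the samples. The block called 0 members there too. Motif letters were shortened after a longer form of 2 of them had been searched, which raised their shares. Of 78 members, 73 had coordinates equal to GENCODE vM21.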

Additional observations from a re-analysis of the deposited data

Results flagged for a closer look

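There were 6 effects of WD over chow that ran in opposite directions in the 2 tissues, with no overlap between the diets in either tissue. The difference between tissues was not tested in any of them, and none of these effects passed the test in its own tissue. How many of all genes did the same was not counted, so the 6 are not shown to exceed the background. Under the WT label, 42 members were lower in liver without overlap (19.2% of all genes) and 7 higher in iWAT (15.5%). Under the KO label, 22 were lower in liver (12.5%) and 22 higher in iWAT (8.63%). Under the WT label, Mrpl28 stood at -0.23 (log2 fold change, WD over chow) in liver and at 0.17 in iWAT, and Mrpl40 at -0.32 in liver and 0.17 in iWAT. Under the KO label, Mrpl34 stood at -0.20 in liver and 0.44 in iWAT, Mrps2 at -0.18 in liver and 0.48 in iWAT, Mrpl43 at -0.22 in liver and 0.18 in iWAT, and Mrpl10 at -0.043 in liver and 0.42 in iWAT. With libraries scaled to total reads, the liver value turned to 0.10 for Mrpl28 and 0.018 for Mrpl10, stood at -0.0006 for Mrpl40, and stayed below 0 for Mrpl34 (-0.14), Mrps2 (-0.12) and Mrpl43 (-0.15).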

How the results depend on the processing

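Scaling to total reads reversed the counts and medians of 3 comparisons and 2 further medians. Of livers labelled KO over WT on WD it left 3 called members, all lower, with a median of -0.070; of WD over chow in livers labelled WT 5, all higher, with 0.036; and of liver over iWAT 51, of which 43 were lower, with -0.31. The last comparison also reversed under it for Mrpl34 (-0.034), Mrpl43 (-0.053), Mrpl44 (-0.46), Mrpl58 (-0.10), Mrps18c (-0.37), Mrps5 (-0.091) and Mrpl10 (-0.47), and with quantile normalization for Mrpl44 (-0.0074) and Mrpl10 (-0.22). The median of WD over chow in WT iWAT, near 0, was -0.012 with quantile normalization and -0.027 by total reads, and that of the liver interaction, with no member called, was -0.081 by total reads. The shift of the median of all genes goes with each of these. By total reads 337 genes rose and 2969 fell in livers labelled KO over WT on WD. In WD over chow of livers labelled WT 3561 rose and 344 fell, and in liver over iWAT 2361 were higher and 9753 lower. The cause of the reversals was not tested.

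Counts of called members moved as follows. KO over WT on WD in iWAT had 36 with DESeq2, 1 with no filter, 5 by total reads, 0 without the muscle-rich libraries and 0 without the lymphocyte-rich ones; leaving out 1 library gave 0 to 25. KO over WT on WD in liver had 8 with DESeq2, 6 with edgeR, 10 with no filter, 10 with quantile normalization and 11 without the muscle-rich livers; leaving out 1 library gave 3 to 16. WD over chow in livers labelled WT had 12 with edgeR, 12 with no filter, 11 with quantile normalization and 7 without the muscle-rich livers; leaving out 1 library gave 5 to 21. WD over chow in WT iWAT had 5 with DESeq2, 2 by total reads and 0 with no filter, without the muscle-rich libraries and without the lymphocyte-rich ones; leaving out 1 library gave 0 to 0. DESeq2 called 1 member in KO over WT on chow and 1 in WD over chow of KO, both in iWAT. Calls over all genes moved with the scaling too. With quantile normalization 1018 genes rose and 1365 fell in livers labelled KO over WT on WD, against 1490 and 1453 in the main fit. In WD over chow of livers labelled WT they were 1325 and 947, against 1363 and 1330. By total reads KO over WT on WD in iWAT had 369 and 539, against 470 and 154. Most other member counts here, also those with libraries left out or with the block, have no count of all genes beside them. Such counts do not tell a change in the members from a change in calls over all genes. Leaving out 1 library gave 47 to 54 for liver over iWAT. More genes are tested with no filter and fewer samples when libraries are left out; the cause of the other shifts was not tested.

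With the replicate number as a block, 24 members were called in KO over WT on WD in iWAT, 13 in liver, 16 in WD over chow of livers labelled WT and 0 in WD over chow of WT iWAT. In KO over WT on chow in iWAT, 0 were called with or without the block. No block was fitted for liver over iWAT. Of the named calls, 9 of 17 in liver over iWAT held under every setting, and 0 of 8 on WD in iWAT, 0 of 7 on WD in liver and 0 of 10 in WD over chow of livers labelled WT did. Detected members held 47 to 1679 reads per library, and Mrpl53, at 0 throughout, could not be tested.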

Other observations

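Other genes of mitochondrial translation also stood higher in WT chow liver than in WT chow iWAT by FPKM, a comparison in which 32.5% of all genes were higher and 31.5% lower. Of 15 mitochondrial translation factors 12 were higher and none lower (limma), led by Lrpprc (2.09 ± 0.14, log2 fold change of liver over iWAT ± SE, adjusted p = 2.44e-10) and the elongation factor Gfm1 (1.64 ± 0.14). Of 17 aminoacyl-tRNA synthetases 10 were higher and none lower, of 26 assembly factors 13 were higher and 3 lower, and of 9 folding-stress genes 8 were higher and 1 lower, with the chaperonin Hspd1 at 1.59 ± 0.16. Tfam, which packages mitochondrial DNA, stood at 1.16 ± 0.10. Of 78 cytosolic ribosomal proteins 5 were higher and 13 lower, both smaller shares than among all genes, with a median of -0.14. As for the mitochondrial ribosomal proteins, these FPKM differences include a shift of the median of all genes by -0.62 when libraries are scaled to total reads.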
